A study of Sus scrofa with 36 samples.

Results

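The paired-box genes PAX1, PAX3, PAX7 and PAX9, the homeobox genes MEOX1, MEOX2 and UNCX, the basic helix-loop-helix gene TCF15 and the forkhead genes FOXC1 and FOXC2 were followed as transcription factors of the somite. The 10 genes were chosen by name and all 10 were found among the 20683 genes of the tables. The study measured 36 bulk RNA-seq libraries of pig cells, which fall into 11 groups. A single induced pluripotent stem cell (iPSC) line, PiPSC clone 8, gave 7 groups of 3 libraries each. They were undifferentiated cells with the mouse feeder layer removed (day 0), primitive streak/mesendoderm in E8A100ch3 (day 1), presomitic mesoderm (PSM) in S1LDN medium (day 2), somite in S2LDN medium (day 3), endothelial cells (day 6), beating cardiomyocytes (day 9) and neural progenitors (day 24). The other 4 groups were pig fibroblasts (n = 4) and 3 more undifferentiated lines, namely clone 1 (n = 3), clone 2 (n = 4) and also clone 3 (n = 4), which the labels tie to PiPS-EP1 cells (clone 1) and PiPS-EP5 cells (clones 2 and 3), the former with the note minusPD and the latter with minusPD and minusA83. Every clone 8 group descends from 1 clone, and the media of the endothelial, cardiomyocyte and neural groups are not given in the sources used here, nor is whether the day 6 cells passed through a PSM or somite stage. The labels do not say that replicates came from separate cultures, so p-values measure the spread between these libraries, which may be technical.

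Somites bud in pairs from the presomitic mesoderm of the embryonic trunk as epithelial balls, and later divide into sclerotome, which forms vertebrae and ribs, and dermomyotome, which forms trunk muscle and dermis. TCF15 (paraxis) is needed for the epithelial state of the new somite, FOXC1 and FOXC2 act together in the paraxial mesoderm that gives rise to it, and MEOX1 and MEOX2 are expressed in the whole somite soon after it forms. PAX3 and PAX7 then mark dermomyotome, PAX1 and PAX9 sclerotome, and UNCX the posterior part of the sclerotome. Several of these genes also serve elsewhere: PAX3 and PAX7 in neural crest and neural tube, PAX1 and PAX9 in pharyngeal endoderm, FOXC1 and FOXC2 in blood and lymph vessels, and UNCX in neurons.

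Levels are given in TPM, a measure of transcript abundance that the authors scaled for gene length and library total. Tests are edgeR's quasi-likelihood test on estimated counts in the 15 clone 8 libraries of days 0 to 6, with Benjamini-Hochberg adjustment over 13597 genes. The threshold was an adjusted p of 0.05. Fold changes are on the log2 scale with their standard error (SE). Total estimated counts ran from 4929561 to 5860413 in the somite group and from 3649335 to 9727315 in the endothelial group, and 1845333 to 69879325 over all libraries. The comparisons below share libraries with each other, so they are not independent. In bulk samples fewer cells of a type and less RNA per cell cannot be told apart. All 10 genes passed the filter on low counts, MEOX2 and UNCX only through the endothelial libraries. PAX3 and PAX9 each had 1 somite library above the filter's limit of 1.3 CPM (counts scaled by library size) and otherwise only endothelial ones. These 4 genes were thus tested only because of their endothelial libraries. Their adjusted p-values against endothelial cells and those of PAX3 and PAX9 between PSM and somite are therefore descriptions. So are counts and medians over the 10 genes.

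In every somite library 4 of the 10 genes reached 1 TPM, namely MEOX1, TCF15, FOXC1 and FOXC2. In every endothelial library all 10 reached 1 TPM. Against day 3 somite, 7 genes were higher in day 6 endothelial cells (PAX1, PAX3, PAX7, PAX9, MEOX1, MEOX2 and UNCX), 2 were higher in somite (TCF15 and FOXC2), and FOXC1 did not pass the test. Among all genes tested, 20.8% were lower in somite, 21.1% were higher and 41.9% changed either way. The median log2 fold change, somite against endothelial, was -3.26 over the 10 genes and -0.003 over all genes. In TPM, the endothelial libraries lay above every somite library for the same 7 genes and below them for TCF15 and FOXC2. Of all genes tested, 27% had somite libraries wholly below the endothelial ones, 25.5% wholly above and 52.5% either.

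**Figure D1:**
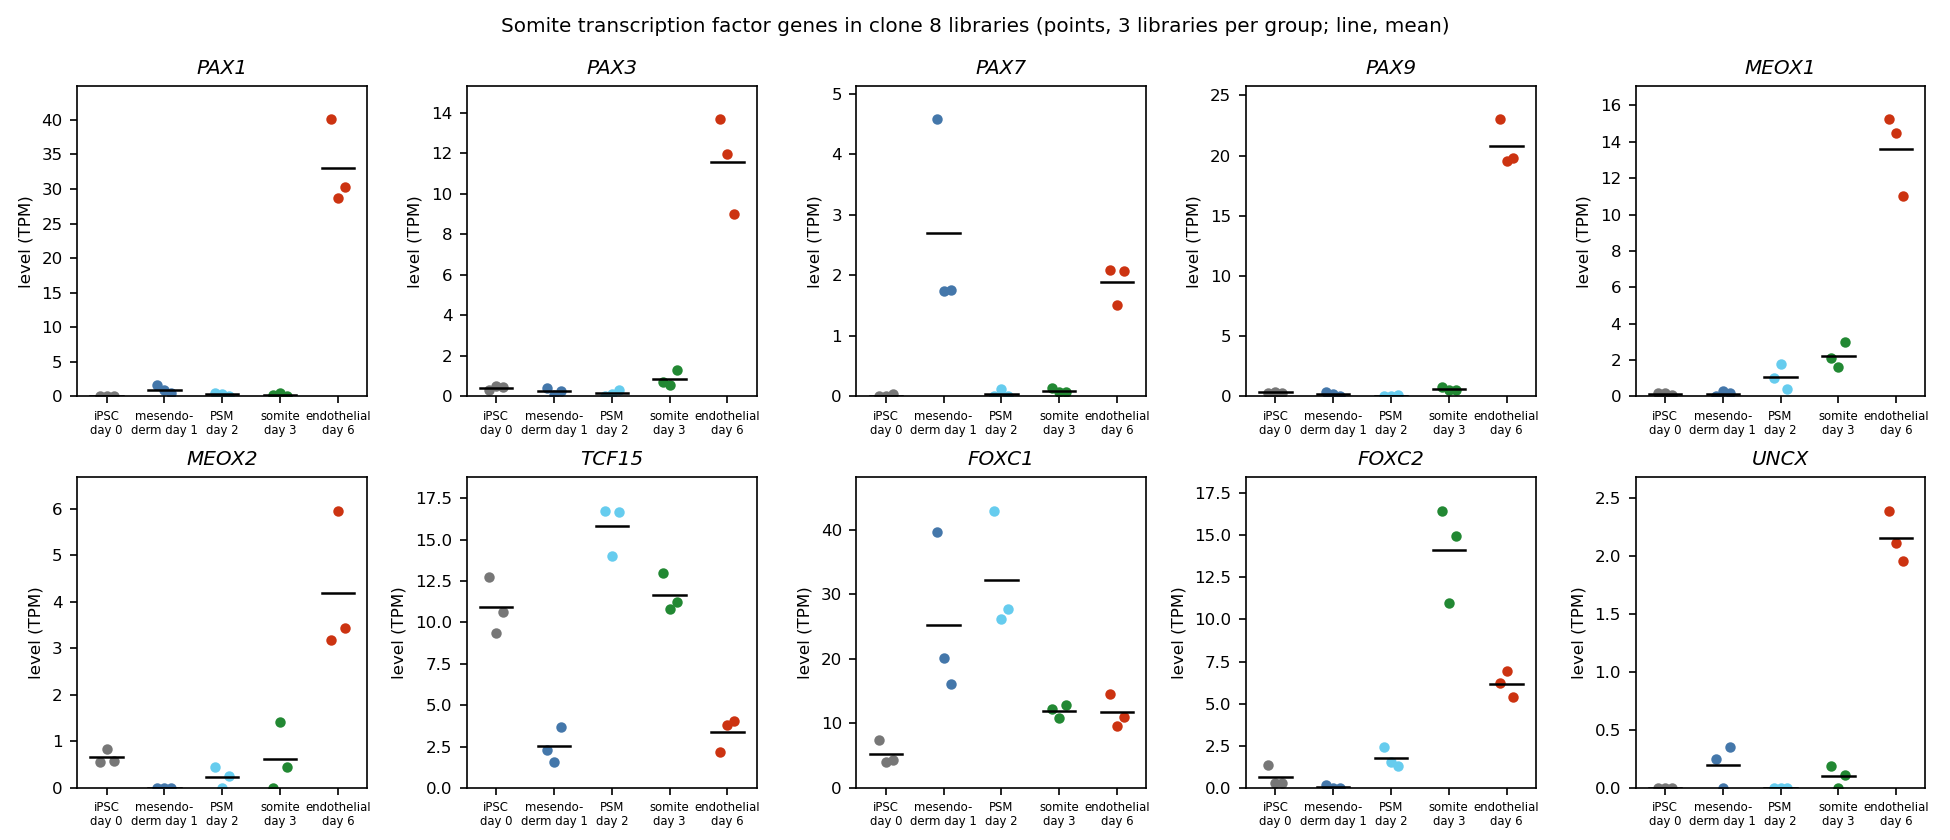
Level in TPM (vertical axis, linear, from 0, scaled per gene) of each of the 10 genes in clone 8 cells of days 0 to 6. Points are libraries, 3 per group, and lines are group means. PAX1, PAX3, PAX9, MEOX1, MEOX2 and UNCX have their highest mean in the endothelial group, TCF15 and FOXC1 in PSM, FOXC2 in somite and PAX7 in mesendoderm.

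Among the sclerotome genes the gap was widest for PAX1, at 29421117-29436481 of chromosome 17 (RefSeq genes on Sscrofa11.1). PAX1 was at 0.26, 0.44 and 0.11 TPM in the 3 somite libraries and at 40.09, 28.63 and 30.34 TPM in the 3 endothelial libraries. The groups lay far apart, and the somite mean was 0.818% of the endothelial mean. The log2 fold change was -6.91 ± 0.37 (SE, edgeR adjusted p = 2.04e-11), and -7.54 without somite replicate 2. Day 0 libraries held 0.07, 0.1 and 0.1 TPM, each under the lowest somite library, and somite against day 0 gave 1.52 ± 0.69 (edgeR adjusted p = 0.0704). A small early rise came on day 1, when the libraries held 1.62, 0.92 and 0.46 TPM (3.62 ± 0.5 against day 0, edgeR adjusted p = 9.84e-06). It was lower on day 2, with 0.47, 0.29 and 0.12 TPM (-1.87 ± 0.43 against day 1, edgeR adjusted p = 0.00294). That fall did not pass in limma on log2(TPM + 1) with the filter on low values (adjusted p = 0.0694) or without it (adjusted p = 0.0844), or in a fit of only these 2 groups (edgeR adjusted p = 0.058).

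PAX9, at 63324709-63346326 of chromosome 7, is the close relative that shares the role of PAX1 in the sclerotome. It was at 0.81, 0.55 and 0.5 TPM in somite and at 23.02, 19.53 and 19.8 TPM in endothelial cells, with no overlap. The log2 fold change was -5.03 ± 0.38 (edgeR adjusted p = 2.7e-09), with a somite mean of 2.98% of the endothelial mean. PAX9 also rose from PSM, where 2 libraries were at 0 and the third at 0.14 TPM. The 22 counts in somite against 3 in PSM gave a ratio of 8.03 (exact 95% interval 2.41 to 41.9, counting error only; edgeR adjusted p = 0.00384), and the fitted change rose from 2.89 to 6.24 on the log2 scale without PSM replicate 3. Against day 0, where it stood at 0.31, 0.4 and 0.31 TPM, the somite level did not pass (0.78 ± 0.53, edgeR adjusted p = 0.225), although each somite library lay above each day 0 library. RefSeq places PAX9 over part of SLC25A21, a mitochondrial carrier gene, and the strand of counting is not given in the sources used here. SLC25A21 was at 0.29 to 0.66 TPM in somite and 1.53 to 2.42 TPM in endothelial libraries, well under PAX9 in the latter. Of the sum of PAX1 and PAX9 in endothelial libraries, PAX1 made up 59.4% to 63.5%.

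UNCX, at 804188-808574 of chromosome 3, was near 0 along the somite path. Somite libraries held 0.19, 0 and 0.11 TPM, endothelial libraries 2.39, 2.11 and 1.96 TPM, and the groups did not overlap. The values rest on few reads, 2 counts over the somite group against 50 over the endothelial group, a ratio of 16.7 (exact 95% interval 4.39 to 142, counting error only; edgeR adjusted p = 0.00334). All day 0 and all PSM libraries were at 0. With a floor of 3 counts over the day 0 group, UNCX was 17.7-fold higher in endothelial cells, a value set by the floor. The ratio of day 0 to endothelial counts was 0 (exact 95% interval 0 to 0.0721, counting error only).

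The dermomyotome genes PAX3 and PAX7 were also lower in somite than in endothelial cells. PAX3, at 124093803-124193041 of chromosome 15, stood at 0.7, 0.54 and 1.3 TPM in somite and at 13.68, 11.97 and 9.01 TPM in endothelial cells. The groups were well separated, with a log2 fold change of -3.78 ± 0.44 (edgeR adjusted p = 1.05e-06) and a somite mean of 7.33% of the endothelial mean. From PSM, at 0, 0.12 and 0.34 TPM, PAX3 rose to the somite level (1.92 ± 0.69, edgeR adjusted p = 0.0269). That rise depended on single libraries: its adjusted p was 0.0854 without PSM replicate 1, 0.0734 without PSM replicate 2 and 0.146 without somite replicate 3, and the change was 3.47 without PSM replicate 3. Day 0 libraries held 0.31, 0.52 and 0.45 TPM, and somite did not differ from them past the test (0.95 ± 0.57, edgeR adjusted p = 0.174).

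PAX7, at 77160827-77268626 of chromosome 6, was highest on day 1. Mesendoderm libraries held 4.58, 1.75 and 1.76 TPM, PSM 0, 0.13 and 0, and somite 0.14, 0.07 and 0.07 TPM. Endothelial libraries held 2.09, 1.51 and 2.07 TPM, the lowest of them under the mesendoderm range and all above every somite library (-4.22 ± 0.68, edgeR adjusted p = 4.97e-05). The day 1 rise was from 1 count over the day 0 group to 176, a ratio of 221 (exact 95% interval 39.2 to 8780, counting error only; edgeR adjusted p = 3.63e-07). The fall to PSM was from 176 counts to 2, a ratio of 76.2 (exact 95% interval 20.8 to 634; edgeR adjusted p = 3.54e-06). PAX3 was at 0.41, 0.09 and 0.29 TPM on day 1 and did not pass against day 0 (-0.44 ± 0.65, edgeR adjusted p = 0.633). The difference between the 2 genes was not tested. In endothelial libraries PAX3 made up 81.3% to 88.8% of the sum of PAX3 and PAX7.

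MEOX1 was higher in somite than on day 0, and higher still in endothelial cells. At 19431397-19452430 of chromosome 12, it was at 0.18, 0.19 and 0.09 TPM on day 0, 0, 0.3 and 0.17 on day 1, 1.02, 1.8 and 0.41 in PSM, and 2.09, 1.6 and 2.98 TPM in somite. All 3 somite libraries lay above all day 0 libraries, a log2 fold change of 3.9 ± 0.64 (edgeR adjusted p = 4.61e-05). The step from mesendoderm to PSM passed (2.66 ± 0.72, edgeR adjusted p = 0.00901) but not without PSM replicate 2 (2.01, adjusted p = 0.0708), and its size was 2.02 without mesendoderm replicate 1 and 3.42 without mesendoderm replicate 2. The step from PSM to somite did not pass (0.92 ± 0.49, edgeR adjusted p = 0.127), and the 2 groups overlapped. Endothelial libraries were higher again, at 15.24, 14.5 and 11.04 TPM, with somite lower by a log2 fold change of -2.63 ± 0.41 (edgeR adjusted p = 3.04e-05). The somite mean was 16.4% of the endothelial mean, the highest share among the 7 genes that were lower in somite.

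MEOX2, at 84945178-85009939 of chromosome 9, was low and rested on few reads. Somite libraries held 0, 1.42 and 0.45 TPM, a wider scatter than that of MEOX1, and endothelial libraries held 3.18, 5.96 and 3.43 TPM. There were 4 counts over the somite group and 45 over the endothelial group. Somite was lower (-2.74 ± 0.83, edgeR adjusted p = 0.0135), but the test did not pass without somite replicate 1 (adjusted p = 0.0618), and the change was -4.12 without somite replicate 2. Day 0 libraries, at 0.56, 0.84 and 0.57 TPM, lay within the somite range (somite against day 0, -0.11 ± 1.02, edgeR adjusted p = 0.939).

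TCF15 ran the other way. At 34626682-34632881 of chromosome 17, it was at 12.96, 10.79 and 11.26 TPM in somite against 2.2, 3.81 and 4.07 TPM in endothelial cells, a log2 fold change of 1.7 ± 0.33 (edgeR adjusted p = 0.000403). The somite mean was 3.47 times the endothelial mean. A level like that of somite was already present in undifferentiated cells, whose day 0 libraries held 12.75, 9.36 and 10.63 TPM, and the 2 groups did not differ past the test (0.08 ± 0.3, edgeR adjusted p = 0.843). TCF15 fell on day 1 to 2.28, 1.58 and 3.7 TPM (-1.83 ± 0.34, edgeR adjusted p = 0.000256). It rose on day 2 to its highest level, 16.75, 14.04 and 16.66 TPM (2.59 ± 0.34 against day 1, edgeR adjusted p = 7.67e-06). The decline from PSM to somite did not pass (-0.68 ± 0.3, edgeR adjusted p = 0.0644), although the groups did not overlap. Clones 1, 2 and 3 held 5.62 to 13.37 TPM over their 11 libraries, while all 4 fibroblast libraries had 0 counts.

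FOXC1 fell and FOXC2 rose between PSM and somite. FOXC1, at 837088-840593 of chromosome 7, was at 7.44, 3.98 and 4.27 TPM on day 0 and rose to 39.71, 20.14 and 16.1 TPM on day 1 (2.47 ± 0.26, edgeR adjusted p = 3.11e-07). PSM held 42.96, 26.17 and 27.77 TPM, not different from day 1 past the test (0.36 ± 0.24, edgeR adjusted p = 0.285). In somite it fell to 12.23, 10.82 and 12.88 TPM (-1.64 ± 0.25, edgeR adjusted p = 1.89e-05), still above day 0 (1.18 ± 0.27, edgeR adjusted p = 0.000973). Endothelial libraries held 14.54, 9.54 and 11.02 TPM, overlapping somite, with a log2 fold change of 0.06 ± 0.26 (edgeR adjusted p = 0.873).

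FOXC2, at 2552141-2555041 of chromosome 6, had its highest level in somite among all 11 groups. It was at 0.19, 0 and 0 TPM on day 1, 2.45, 1.51 and 1.31 TPM in PSM, and 16.45, 10.98 and 14.95 TPM in somite. The rise from PSM to somite was 2.82 ± 0.4 (edgeR adjusted p = 7.67e-06) and that from mesendoderm to PSM, 47 counts against 2, a ratio of 27.1 (exact 95% interval 7.11 to 231, counting error only; edgeR adjusted p = 0.000151). Against day 0, at 1.35, 0.27 and 0.32 TPM, somite was higher by 4.4 ± 0.44 (edgeR adjusted p = 8.54e-08), and by 5.45 without day 0 replicate 1. FOXC2 was also lower on day 1 than on day 0, 2 counts against 23, but not without day 0 replicate 1 (edgeR adjusted p = 0.0115 with it and 0.12 without), and not in limma on log2(TPM + 1) with the filter on low values (-0.58, adjusted p = 0.0927) or without it (-0.58, adjusted p = 0.125). Endothelial libraries held 6.21, 6.93 and 5.42 TPM, below each somite library (1.19 ± 0.35, edgeR adjusted p = 0.00996). That call was lost without endothelial replicate 3 (1.05, adjusted p = 0.0588) and in limma on log2(TPM + 0.1) (adjusted p = 0.0933). RefSeq places FOXC2 over part of MTHFSD, which was at 1.49 to 2.28 TPM in somite and 0.56 to 2.17 TPM in endothelial libraries.

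The share of FOXC1 in the sum of FOXC1 and FOXC2 was 94.5% to 95.5% in the 3 PSM libraries and 42.6% to 49.6% in the 3 somite libraries. It was 57.9% to 70.1% in the endothelial libraries and 84.6% to 93.6% on day 0. The somite libraries thus were the only ones of the clone 8 groups of days 0 to 6 in which FOXC2 exceeded FOXC1. The margin was small in somite replicate 2, at 10.98 TPM of FOXC2 and 10.82 TPM of FOXC1. The difference between the 2 genes was not tested.

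**Figure D2:**
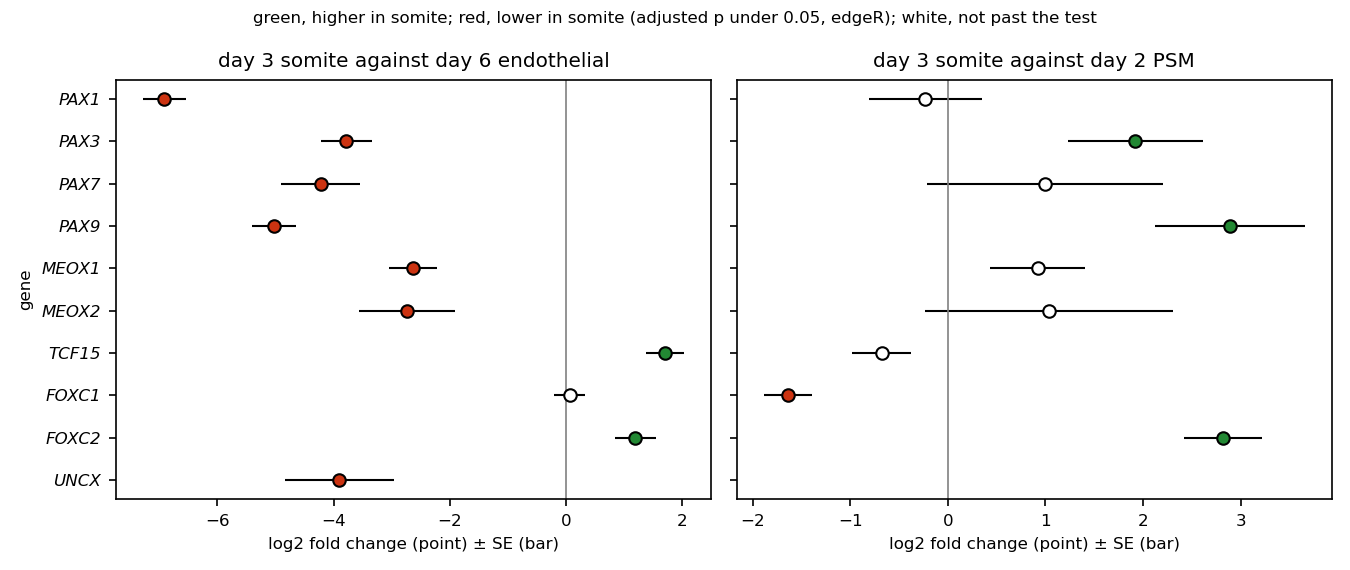
Log2 fold change (horizontal axis; points, bars are ± SE) of the 10 genes for somite against endothelial (left) and somite against PSM (right), from edgeR. UNCX is left out on the right because all PSM libraries were at 0. Against endothelial cells 7 genes lie left of 0 and past the test, and against PSM 3 lie right of 0 and FOXC1 left of it.

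By step, the members changed as follows. From day 0 to day 1, 3 of the 10 rose (PAX1, PAX7 and FOXC1) and 2 fell (TCF15 and FOXC2), beside 20% of all genes that rose, 20.1% that fell and 40.1% that did either. From day 1 to PSM, 3 rose (MEOX1, TCF15 and FOXC2) and 2 fell (PAX1 and PAX7), beside 12.6% of all genes that rose, 13.5% that fell and 26.2% that did either. From PSM to somite, 3 rose (PAX3, PAX9 and FOXC2) and FOXC1 fell, beside 26.6% of all genes that rose, 24.5% that fell and 51.2% that did either. Over the whole path from day 0 to day 3, 3 rose (MEOX1, FOXC1 and FOXC2) and none fell, beside 26.3% of all genes that rose, 25.5% that fell and 51.8% that did either. The other 7 did not pass. Day 6 endothelial cells against day 0 gave 9 that rose and 1, TCF15, that fell (-1.62 ± 0.33, edgeR adjusted p = 0.000425), beside 23.7% of all genes that rose, 24% that fell and 47.7% that did either. The median log2 fold change of the 10 genes against day 0 was 1.35 in somite (1.07 with a group at 0 set to the floor of 3 counts) and 5.27 in endothelial cells (4.44 with the floor), while that of all genes was 0.012 and -0.028. The share of members that rose from day 0 to day 3 was thus near that of all genes. When all 21 clone 8 libraries were fitted together, which adds 2 libraries that went against their labels, FOXC2 (adjusted p = 0.501) and UNCX (0.345) no longer passed between somite and endothelial cells. FOXC2 (0.0691) and PAX3 (0.299) no longer passed between PSM and somite, FOXC2 (0.0624) and PAX1 (0.0797) between day 1 and PSM, FOXC2 (0.214) between day 0 and day 1, and UNCX (0.151) between day 0 and endothelial cells.

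Other genes of the path were taken from lists of markers, whose levels are given as means of 3 libraries. Of 12 genes of the posterior PSM, the tailward zone from which somites form, 10 fell from PSM to somite, none rose and 2 did not pass, beside 24.5% of all genes that fell (median log2 fold change -4.81, or -4.42 with the floor, against 0.05 over all genes). RSPO3, a Wnt enhancer, went from a mean of 121.5 to 7.01 TPM (-4.32 ± 0.29, edgeR adjusted p = 3.31e-10). T (brachyury) went from 63.35 to 1.947 TPM (-5.31 ± 0.29, edgeR adjusted p = 2.44e-11) and CDX2, a posterior homeobox gene, from 74.12 to 6.563 TPM (-3.7 ± 0.33, edgeR adjusted p = 1.76e-08). MSGN1, a PSM regulator with a mean of 91.07 TPM in PSM, was at 0 in all somite libraries. In endothelial cells RSPO3 and CDX2 were higher than in somite, at 33.59 ± 6.55 and 25.44 ± 2.43 TPM (SD, n = 3).

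Of 11 tested genes of the anterior PSM and of segmentation, 2 rose from PSM to somite and 5 fell, beside 26.6% and 24.5% of all genes (median log2 fold change -1.01, or -0.53 with the floor). TBX18, which marks the anterior part of the somite, rose from 1.34 to 10.86 TPM (2.79 ± 0.35, edgeR adjusted p = 1.78e-06), and EFNB2, an ephrin of the somite boundary, from 5.42 to 48.49 TPM (2.92 ± 0.32, edgeR adjusted p = 2.93e-07). ALDH1A2, which makes retinoic acid, fell from 348.1 to 115 TPM (-1.84 ± 0.24, edgeR adjusted p = 2.72e-06). EPHA4, an ephrin receptor, fell by 1.01 ± 0.22 on the log2 scale (edgeR adjusted p = 0.000707). MESP2, a segmentation regulator, stood at 0.2333 ± 0.404 TPM (SD, n = 3) in somite. Against endothelial cells, 3 of the 11 were higher in somite, ALDH1A2, DLL1 and TBX18, and 5 were lower, with EFNB2 at 100.1 ± 4.5 and NRARP, a Notch target, at 21.94 ± 5.94 TPM (SD, n = 3) in endothelial cells.

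Sclerotome markers other than PAX1, PAX9 and UNCX had 8 tested genes, of which 6 rose from PSM to somite and none fell, beside 26.6% of all genes that rose (median log2 fold change 1.69). COL2A1, the cartilage collagen, rose from 11.67 to 49.39 TPM (1.88 ± 0.27, edgeR adjusted p = 8.65e-06), PDGFRA, a growth factor receptor of mesenchyme, from 10.56 to 35.54 TPM (1.51 ± 0.18, edgeR adjusted p = 7.84e-07) and SOX9, the cartilage regulator, from 1.86 to 8.653 TPM (2 ± 0.33, edgeR adjusted p = 4.97e-05). TWIST1, at 15.04 TPM in somite, did not pass (edgeR adjusted p = 0.656). Against day 0, 5 of the 8 were higher in somite, 1 was lower and 2 did not pass, beside 26.3% and 25.5% of all genes. Means in undifferentiated day 0 cells were 31.42 TPM for COL2A1, 5.22 TPM for SOX9, 1.457 TPM for PDGFRA and 1.35 TPM for TWIST1. On day 1 PDGFRA was at 79.31 TPM, above its somite mean. NKX3-2, a later sclerotome regulator, had a mean of 0.09667 ± 0.167 TPM in somite and 0.1467 ± 0.127 TPM in endothelial cells (SD, n = 3 each). Against endothelial cells the 8 genes split: 1 was higher in somite (GLI1), 1 was lower (COL2A1, 378.1 TPM in endothelial cells, -2.93 ± 0.26, edgeR adjusted p = 2.98e-08) and 6 did not pass. PDGFRA, TWIST1 and SOX9 were at 38.93 ± 5.99, 15.04 ± 1.21 and 13 ± 5.5 TPM (SD, n = 3) in endothelial cells.

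Dermomyotome and myotome markers other than PAX3 and PAX7 had 6 tested genes of 13. From PSM to somite 3 rose, EYA1 (1.833 to 25.3 TPM, 3.49 ± 0.26, edgeR adjusted p = 1.63e-09), SIM1 and MET, and SIX4 fell (-0.68 ± 0.16, edgeR adjusted p = 0.00198). The median log2 fold change was 1.36, and 26.6% of all genes rose and 24.5% fell. Against endothelial cells SIX4, a partner of the EYA proteins, was lower in somite (-0.65 ± 0.16, edgeR adjusted p = 0.00341), while MET was higher (1.65 ± 0.29, edgeR adjusted p = 0.000116) and EYA1 did not pass (edgeR adjusted p = 0.0597). Regulators of skeletal muscle were near 0: MYOD1, the muscle determination gene, was at 0 in all somite and endothelial libraries, and MYF5 had means of 0.2967 ± 0.514 and 0.1567 ± 0.271 TPM (SD, n = 3 each). Of 3 syndetome (tendon) markers only MKX was tested, and it was lower in somite than in endothelial cells (4.297 against 8.573 TPM, -0.98 ± 0.27, edgeR adjusted p = 0.00595).

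**Figure D3:**
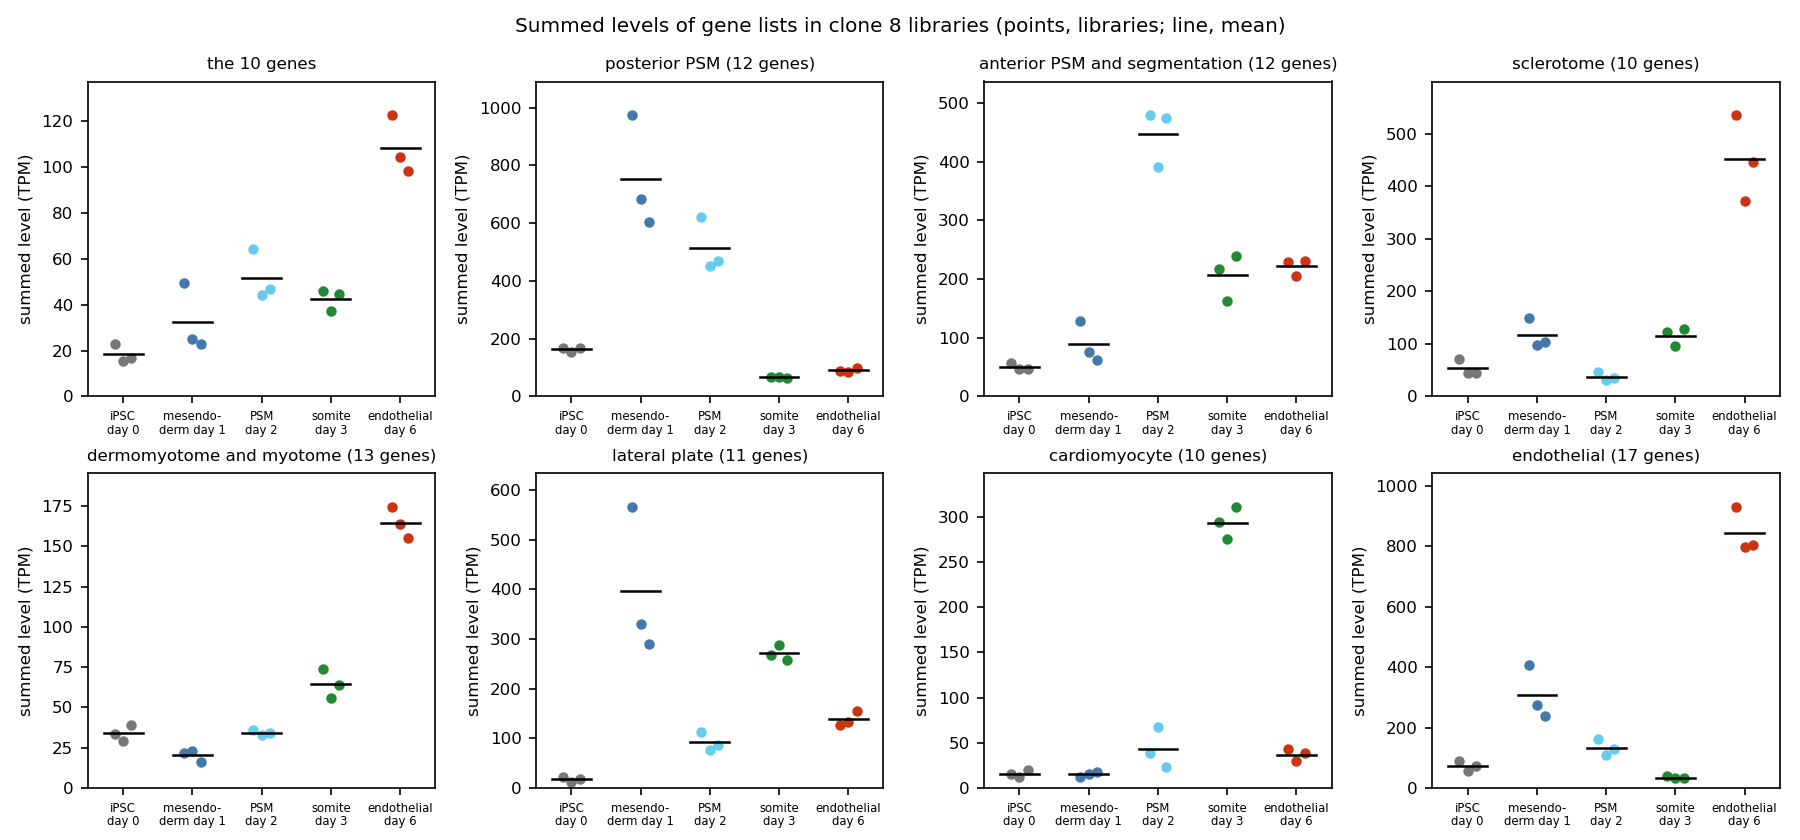
Summed level in TPM (vertical axis, linear, from 0, scaled per list) of the 10 genes and of 7 marker lists in clone 8 cells of days 0 to 6. Points are libraries, 3 per group, and lines are group means. The sum of the 10 genes is 37.21 to 45.83 TPM in somite and 98.16 to 122.6 TPM in endothelial libraries, the posterior PSM list is low in both, and the cardiomyocyte list peaks in somite.

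Markers of other cell types moved with the same comparison, and their part in the results for the 10 genes was not tested. The counts below stand beside 21.1% of all genes that were higher in somite and 20.8% that were lower, and a median log2 fold change of -0.003 over all genes. Of 17 endothelial markers, all 17 were lower in somite (median log2 fold change -5.44, or -4.69 with the floor), with summed levels of 31.55 to 38.28 TPM in somite and 797.3 to 931 TPM in endothelial libraries. PECAM1 and CDH5, which join endothelial cells, had means of 0.4067 ± 0.177 and 0.9633 ± 0.799 TPM in somite and 283.8 ± 9.82 and 85.69 ± 13.7 TPM in endothelial cells (SD, n = 3 each), so the day 6 libraries carried the markers of their label. Of 8 cardiomyocyte markers tested, 6 were higher in somite and 1 lower (median 2.26). That list summed to 276 to 311.3 TPM in somite and 29.29 to 42.83 TPM in endothelial libraries, led by MYH7 (93.33 ± 4.88 TPM), MYL7 (92.65 ± 8.14 TPM) and TNNI1 (88.73 ± 10.1 TPM; SD, n = 3) in somite, while TNNT2 had a mean of 3.817 ± 2.07 TPM. Of 10 lateral plate markers, 5 were higher in somite and 3 lower (median 0.95), with sums of 258.6 to 288.1 TPM in somite and 126.6 to 154.9 TPM in endothelial libraries. BMP4 (197.3 ± 18.8 against 37.62 ± 9.7 TPM) and GATA6 (41.84 ± 4.83 against 10.1 ± 1.07 TPM) were among the former and HAND2 (3.36 ± 1.54 against 48.18 ± 6.1 TPM) among the latter. Of 4 intermediate mesoderm markers, which stand for the tissue beside the somite, 1 was higher in somite (OSR1, 29.2 ± 12.5 against 7.657 ± 0.601 TPM) and 3 were lower (median -5.86, or -4.13 with the floor), with PAX2 and WT1 at 0 in all somite libraries.

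For the tissues that share PAX1 and PAX9 or PAX3 and PAX7 with the somite, the lists gave mixed directions, beside the same shares of all genes. Of 8 neural crest markers, 4 were lower in somite and 1, ERBB3, higher (median log2 fold change -1.37). Sums were 168.3 to 262.4 TPM in somite and 119.5 to 131.1 TPM in endothelial libraries. ERBB3 made up most of the somite sums, at 225.85, 191.8 and 150.53 TPM. It is not particular to crest here either, with 96.72 ± 4.13 TPM (SD, n = 3) in undifferentiated day 0 cells. The crest markers SOX10 and FOXD3 had means of 3.203 ± 1.99 and 2.92 ± 1.5 TPM in endothelial cells against 0.07667 ± 0.133 and 0.06667 ± 0.115 TPM in somite (SD, n = 3 each). FOXD3 is not particular to crest here, with 14.57 ± 3.19 TPM in undifferentiated day 0 cells. TFAP2A, another crest gene, stood at 20.12 ± 4.29 TPM in endothelial cells against 2.25 ± 1.08 TPM in somite, and had a mean of 16.73 TPM in fibroblasts. SNAI2 overlapped, at 18.4, 13.86 and 8.82 TPM in somite and 16.45, 10.61 and 15.93 TPM in endothelial libraries. Of 10 neural markers, 7 were lower in somite and 1 higher (median -2.18), with sums of 257.7 to 366.7 TPM in somite and 205.5 to 244.8 TPM in endothelial libraries, and SOX2 at 9.297 ± 1.77 against 47.7 ± 8.85 TPM. Of 7 endoderm markers, 4 were higher in somite and 2 lower (median 0.44), with sums of 877.7 to 1234 TPM in somite and 630.1 to 662.4 TPM in endothelial libraries. FOXA2, an endoderm marker, had means of 3.163 ± 1.84 TPM in somite and 0.4267 ± 0.368 TPM in endothelial cells, but 7.84 ± 2.43 TPM in undifferentiated day 0 cells. TBX1, expressed in pharyngeal endoderm and mesoderm, had means of 6.063 ± 1.78 TPM in somite and 7.403 ± 1.73 TPM in endothelial cells. The epithelial genes CDH1 and EPCAM made up most of that sum, at 600.2 ± 136 and 401.6 ± 63.4 TPM in somite. Of the other PAX genes, PAX2 and PAX6 were lower in somite and 1 did not pass.

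Genes whose levels ran most like each member were found by Pearson's r of log2(TPM + 1) over all 36 libraries, among 11761 genes that reached 5 TPM in a group. The libraries share groups and differ in depth, so r is given as a description with no test. For PAX1 they were HOXC4 (r = 0.949), PECAM1 (0.945), BCL6B (0.94), FCGR3A (0.938) and ADGRF5 (0.937). For PAX9 they were CDH5 (0.984), SLA-DRB1 (0.983), ADGRF5 (0.98), TM4SF18 (0.979) and FCGR3A (0.976). PAX3 ran most like CTXN3 (0.957), MMRN1 (0.936), TFAP2B (0.926), CAPN6 (0.915) and DLL4 (0.912), and MEOX1 like CAPN6 (0.916), DLL4 (0.915), CDH5 (0.912), SLA-DQA1 (0.897) and GPR182 (0.892). All these genes had their highest mean in the endothelial group. PAX1 and PAX9 ran alike at r = 0.92.

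The FOXC genes and TCF15 had other companions. FOXC1 ran most like APLNR (0.956), LRIG3 (0.94), ACO1 (0.931), SP5 (0.93) and LNX2 (0.907), of which LRIG3 was highest in PSM and the others in mesendoderm. FOXC2 ran most like GLB1 (0.918), SLIT3 (0.884), CPED1 (0.874), RARB (0.874) and LOXL1 (0.851), all highest in somite. TCF15 ran most like CGN (0.935), PLCG2 (0.935), SPINT1 (0.934), RAB19 (0.921) and S100A14 (0.918). Genes that ran like UNCX included FAM181A (0.988), SEZ6 (0.986), POU3F3 (0.986) and NWD2 (0.984), all highest in the neural progenitor group. PAX7 and MEOX2 stayed under 5 TPM in every group mean and were not compared.

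In the late groups 2 libraries went against their labels, so these groups were described by library and entered no test. The library labelled cardiomyocyte replicate 2 held 4.28 TPM of TNNT2, a heart troponin gene, and 254.45 TPM of PAX6, a neural gene, while the other cardiomyocyte libraries held at least 4380.18 TPM of TNNT2 and at most 0.27 TPM of PAX6. The library labelled neural progenitor replicate 1 held 5155.47 TPM of TNNT2 and 0.19 TPM of PAX6. UNCX followed these genes and not the labels. It was at 59.27 TPM in the library labelled cardiomyocyte replicate 2 and 73.65 and 74.03 TPM in those labelled neural progenitor replicates 2 and 3, and at 0, 0 and 0.11 TPM in the other 3 late libraries. These 3 levels were the highest of UNCX in the study. PAX3 was at 2.69, 5.78 and 2.85 TPM in the same 3 libraries and at 0, 0.22 and 0 in the others. MEOX1 stayed at or under 1.72 TPM, TCF15 at or under 0.57 TPM and FOXC1 at or under 0.81 TPM in all 6 late libraries. PAX1 stayed at or under 0.14 TPM there, PAX9 at or under 0.08 TPM and PAX7 at or under 0.97 TPM. FOXC2 ranged from 0 to 3.52 TPM and MEOX2 from 0 to 2.97 TPM.

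Fibroblasts and the undifferentiated clones were low in most members. Of the 6 tested in clones 1 to 3 (mean of the 3) against fibroblasts, TCF15 and FOXC1 were higher in the clones, PAX1 and FOXC2 were lower, and PAX9 and MEOX1 did not pass, beside 38.6% of 14660 genes that were higher, 35.9% that were lower and 74.6% that were either. FOXC1 was at 0.4, 0.4, 0 and 0.43 TPM in fibroblasts and at 5.54 to 16.18 TPM over the 11 clone libraries (4.5 ± 0.37, edgeR adjusted p = 6.2e-09). FOXC2 was at 4.91, 5.06, 2.14 and 1.17 TPM in fibroblasts and at 0.75 TPM or less in the clones (-5.78 ± 0.65, edgeR adjusted p = 8.29e-07). The pair thus stood in opposite order in the 2 cell types. Fibroblast libraries 1 and 2 held at least 26120236 counts and libraries 3 and 4 at most 7508792, and FOXC2 gave -6.41 with the former alone and -4.52 with the latter alone, FOXC1 4.28 and 5.5 (all past the test). Fibroblasts also held 1.06, 1.54, 2.22 and 2.32 TPM of PAX1, against at most 0.3 TPM in the clones (-5.05 ± 0.81, edgeR adjusted p = 2.13e-05, and -7.26 without clone 1 replicate 3). PAX3, PAX7, MEOX2 and UNCX were too low to test there, with at most 1.42 TPM in any of these 15 libraries.

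**Figure D4:**
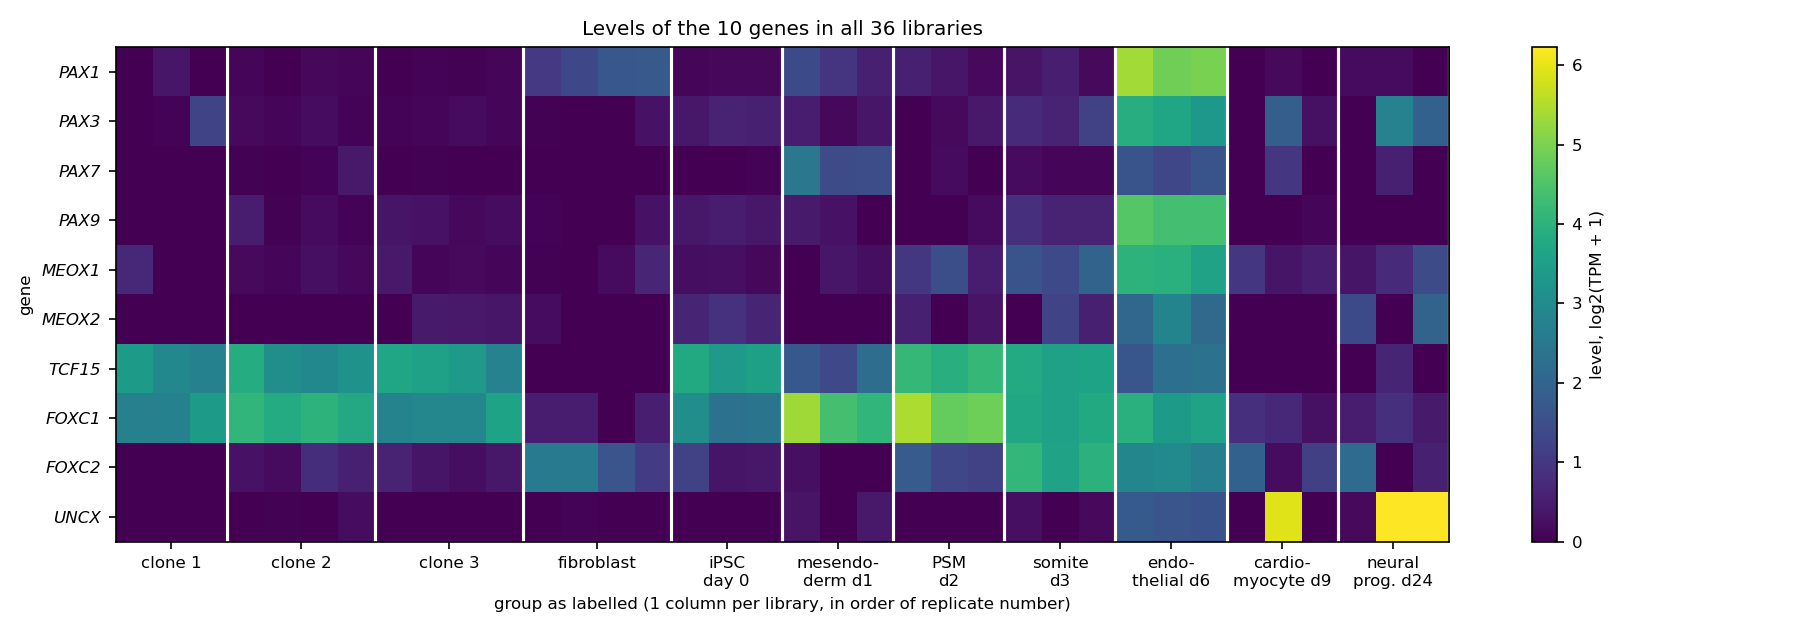
Levels of the 10 genes (rows) as log2(TPM + 1) (colour) in all 36 libraries (columns), ordered by group as labelled and, within a group, by replicate number. The endothelial columns are the only group with all 10 genes at 1 TPM or more, and UNCX is bright in cardiomyocyte replicate 2 and in neural progenitor replicates 2 and 3 as labelled.

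Across the 11 groups the order of means placed the endothelial group first for 5 members (PAX1, PAX3, PAX9, MEOX1 and MEOX2), PSM for TCF15 and FOXC1, somite for FOXC2, mesendoderm for PAX7 and the neural progenitor group for UNCX, the last from labels that 2 late libraries went against. For all 5 endothelial-first members the lowest endothelial library lay above every library of the second group. For PAX7 the mesendoderm and endothelial libraries overlapped. For PAX9 the second group was somite, with no overlap with the third.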

How the data were processed

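Per the labels' protocols, total RNA came from a QIAGEN column kit and cDNA libraries from the ligation-mediated protocol LM-seq. The submitters' processing notes name RSEM 1.2.3, Bowtie 1.2.3, bcl2fastq and the build Sscrofa11.1. Of the 2 files that the authors deposited, one gives expected counts, in which RSEM splits reads shared between genes. The other, deposited alongside, gives TPM, which corrects for gene length and totals the same in each library. Each table held 20683 genes and 36 library columns, all used. Expected counts of PAX3, PAX9 and MEOX1 were not whole (by over 0.02) in 86.7%, 87% and 90.6% of the libraries in which they were above 0. The same held in 57.1% for UNCX, 50% for FOXC2, 42.9% for FOXC1, 16.7% for PAX1 and 11.1% for PAX7. Part of the reads of these genes was thus shared. For MEOX2 and TCF15 it was 0%. Whether counting kept the strand is not given in the sources used here.

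Counts were rounded (values moved by 0.00661% in all), scaled by TMM, filtered with filterByExpr (minimum count 10) and tested with edgeR 4.0.16 in R 4.3.3. One model held the 15 clone 8 libraries of days 0 to 6 (13597 genes), another the 15 of clones 1 to 3 and fibroblasts (14660 genes). The SE was taken as the size of the log2 change over the root of its F statistic. Alternatives were DESeq2 1.42.0, RLE scaling, no filter, limma 3.58.1 on log2(TPM + 1) and log2(TPM + 0.1), other sets of libraries, a replicate block and leaving out each library. The tests were tried on simulated counts. No 2 libraries of a group were identical. Same-numbered clone 8 libraries of days 0 to 6 correlated in their deviations at -0.06 to 0.38 (median 0.08, 30 pairs). Different-numbered ones gave -0.27 to 0.16 (median -0.06, 60 pairs). Whether the numbers pair samples was not settled, and the reported fits held no replicate block.

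The 10 genes and the marker lists were chosen with earlier results of these data known. Named were the 10 genes, list members with the highest group means (up to 4 per list and comparison), and for each member that reached 5 TPM the 5 genes of most similar pattern. Other list members were named after their values were seen. Values of some genes under this rule are not reported here, and list counts and sums include them. PAX8 and PCDH8 were not analysed here. Gene positions come from RefSeq.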

Additional observations from a re-analysis of the deposited data

Results flagged for a closer look

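Among groups of 4 libraries, 7 of 26 tests of a member in a group had 1 library far from the others. The limit was a gap over range above Dixon's 95% critical value of 0.829. Levels near 0 cannot be set against a chance rate, since any value beside 3 libraries at 0 gives a ratio of 1. Only 1 of the 7 was at a level above 1 TPM: FOXC1 was at 11.2 TPM in clone 3 replicate 4 against 5.88 to 6.33 TPM in the other 3. FOXC1 was also at 0 TPM in fibroblast replicate 3 against 0.4 to 0.43 TPM in the others. The other 5 were single libraries slightly above 0: PAX3 at 0.24 TPM in fibroblast replicate 4, MEOX2 at 0.16 TPM in fibroblast replicate 1, UNCX at 0.04 TPM in fibroblast replicate 2, and PAX7 at 0.35 TPM and UNCX at 0.16 TPM in clone 2 replicate 4.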

How the results depend on the processing

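Of 40 member calls, none reversed under any alternative run, 30 passed in every one in which the gene was tested and 10 were lost in at least 1 (6 of them outside the fit of all 21 clone 8 libraries). That fit called 2188 genes for somite against endothelial (5691 in the reported fit), 1808 for day 1 against day 0 (5450), 1053 for PSM against day 1 (3560), 3374 for somite against PSM (6957), 3346 for somite against day 0 (7048) and 2752 for endothelial against day 0 (6486). In it 3 members instead of 5 passed for PSM against day 1 and 2 instead of 4 for somite against PSM. Fits of only the 2 groups compared called 2165 genes and 3 members for PSM against day 1, and 2 members for somite against PSM. There the filter removed MEOX1 from the former and PAX3 and PAX9 from the latter. With a replicate block 6311 genes and 9 members passed for somite against endothelial, and the block lost no member call. Of 15 clone 8 libraries of days 0 to 6, 10 correlated best with another library of their own number, although only 30 pairs shared a number and 60 did not. Leaving out 1 library gave 4693 to 5443 genes and 7 to 9 members for somite against endothelial, 5996 to 7049 and 3 to 4 for somite against PSM, 6185 to 6441 and 3 to 4 for somite against day 0, 4287 to 6499 and 4 to 6 for day 1 against day 0, 2774 to 3858 and 4 to 6 for PSM against day 1, 5433 to 5902 and 9 to 10 for endothelial against day 0, and 10371 to 11196 and 4 for clones against fibroblasts. Calls lost this way stand beside each gene, and the change also moved for PAX7 without day 0 replicate 3 (8.81 on day 1 and 8.1 in endothelial cells, against 7.19 and 6.43), for PAX7 from day 1 to PSM (-8.87 without PSM replicate 2 and -5.25 without PSM replicate 3, against -5.97), and for FOXC2 without day 1 replicate 1 (-5.64 from day 0 and 7.22 to PSM). FOXC2 in endothelial cells against day 0 was 4.31 without day 0 replicate 1, against 3.21. The cause was not tested. Depth limits PAX1, PAX3, PAX7, PAX9, MEOX2 and UNCX on days 0 to 3, with 22 counts or fewer over a group apart from the 84 of PAX1 and the 176 of PAX7 on day 1.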
